A study of Homo sapiens with 11 samples.

Results

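miR-132 and miR-212 are neighbouring microRNAs (miRNAs) whose mature arms were followed here through an oxidative challenge of differentiating neuroblastoma cells. The 4 mature arms, hsa-miR-132-3p, hsa-miR-132-5p, hsa-miR-212-3p and hsa-miR-212-5p, were chosen by name and are 4 of the 2576 miRNAs in the count tables. A miRNA gene is transcribed as a long precursor, cut to a hairpin, and cut again to a short duplex whose strands are called the 5p and 3p arms. One strand is usually retained in the silencing complex, and its seed (bases 2 to 8) pairs with target mRNAs. miR-132 and miR-212 are known as a pair transcribed together in neurons under the transcription factor CREB. It acts through cAMP response elements when neurons are active or receive neurotrophins. The transcriptional repressor REST is also known to act on the pair. miR-132-3p is known to promote neurite outgrowth.

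Small RNA was sequenced from SH-SY5Y, a line derived from the human neuroblastoma line SK-N-SH, so all values come from 1 tumour-derived line. Every culture, controls included, received all-trans retinoic acid (ATRA) for 7 days. In co-treatment, 3 H2O2 cultures received 10 µM H2O2 together with ATRA for those 7 days, and 3 controls received ATRA without H2O2. In pre-treatment, 3 H2O2 cultures received 10 µM H2O2 for 72 hours, which was removed before ATRA was given, and 2 controls had no H2O2. The cultures were biological triplicates by the study's methods, but the counts used here hold only 2 pre-treatment controls. CREB activity was not measured in these files. In such bulk samples, fewer cells of a type and less RNA per cell cannot be told apart.

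The mature sequences are shown first because the pair is defined by them. They were taken from RefSeq (GRCh38.p14), are written 5′ to 3′, and have the seed in capitals.
hsa-miR-132-3p: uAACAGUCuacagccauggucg
hsa-miR-212-3p: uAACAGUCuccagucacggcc
hsa-miR-132-5p: aCCGUGGCuuucgauuguuacu
hsa-miR-212-5p: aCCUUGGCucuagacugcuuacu
Both 3p arms carried the seed AACAGUC, and 17 of their 21 aligned bases were identical. Counted from the 5′ end of miR-132-3p, the differences of miR-212-3p were A10C, C14U, U17C and U20C, all outside the seed. Compared without gaps from the 5′ end, the 5p arms had 14 of 22 bases identical, and their seeds differed at G4U (miR-132-5p base first). They are 22 and 23 bases long, and no alignment with a gap was made. Their likeness is therefore not ranked against that of the 3p arms. No other miRNA of the RefSeq table shared a seed with any of the 4 arms. GC content was lowest in miR-132-5p (45.5%) and highest in miR-212-3p (57.1%).

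The hairpins lie on the minus strand of chromosome 17, and their positions on GRCh37, the build to which the reads were aligned, were found by exact match of the RefSeq hairpin sequence. MIR132 occupies chr17:1953202-1953302, with miR-132-3p at chr17:1953223-1953244 and miR-132-5p at chr17:1953259-1953280. MIR212 occupies chr17:1953565-1953674, with miR-212-3p at chr17:1953584-1953604 and miR-212-5p at chr17:1953622-1953644. The hairpins are 262 bases apart, with MIR212 first in the direction of transcription. No gene of the GRCh37 annotation used here (GENCODE v44lift37) overlapped either hairpin. That annotation does not list MIR132 or MIR212 themselves, so the missing overlap cannot show whether the hairpins lie within a longer transcript. The nearest annotated genes were the lncRNA DPH1-AS1, 4940 bases away on the MIR132 side, and the protein-coding gene HIC1, 3774 bases away on the MIR212 side.

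The palindrome TGACGTCA, the full cAMP response element bound by CREB, was searched because the pair is known for its response to CREB. From 1000 bases before MIR212 to the end of MIR132, the letters occurred at 3 places, shown here with 8 bases on either side and the element in capitals, on the strand of the hairpins.
chr17:1953788-1953795: gacatcttTGACGTCAcggccctc
chr17:1953772-1953779: cggccctcTGACGTCAggggccgc
chr17:1953334-1953341: cgcggcccTGACGTCAgcccgccc
The first and second matches began 121 and 105 bases before the MIR212 hairpin. The third lay between the hairpins, 333 bases after the MIR212 hairpin began. The element reads the same on both strands. The 300 bases from 250 before to 50 after the start of the MIR212 hairpin held 2 matches, and the same window of MIR132 held 1. Of 35116 RefSeq promoter windows of the same length, 649 (1.85%) held at least 1 match and 21 (0.0598%) held 2 or more. The windows of the pair were placed by hairpin starts, which need not be transcription starts, so these shares are only a rough background. A match describes letters only, and binding was not measured.

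Library totals ranged from 5343953 to 8927582 counts, with 1163 to 1245 miRNAs counted at least once, so that 3 counts, taken as the detection limit, equalled 0.336 to 0.561 counts per 1000000 (CPM). The 2 pre-treatment controls were the least alike replicates. They correlated at 0.938 over 759 miRNAs (log2 CPM), against 0.980 to 0.994 for pairs within the other groups. Which of the 2 is typical cannot be told. Control 1 of pre-treatment held 540 counts of the myeloid miR-223-3p and 1007 of the epithelial miR-205-5p, against 4 to 11 and 15 to 32 in the other pre-treatment libraries. Of 8 neuronal markers, miR-124-3p, the most neuron-restricted, had 0 to 7 counts, while miR-137 reached 77318 to 247992 counts and made up most of the summed marker level. That sum was 35834 to 38241 CPM in co-treatment controls and 18527 to 22931 CPM with H2O2, and 14395 to 28798 CPM in pre-treatment controls and 30569 to 37115 CPM with H2O2. The miRNAs of mesenchymal cells summed to 15935 to 17068 CPM in co-treatment controls against 10140 to 13414 CPM with H2O2, and overlapped between groups in pre-treatment (9801 to 19891 against 13176 to 15497 CPM). Blood markers stayed under 36 CPM except in control 1 of pre-treatment (115 CPM), and epithelial markers under 55 CPM except there (176 CPM). The members of these lists did not move together. By the calling rule given below, 2 of 7 tested blood markers rose with H2O2 in pre-treatment (miR-451a and miR-144-5p) and 1 fell (miR-223-3p). Of 6 tested epithelial markers 0 rose and 1 fell (miR-205-5p). Over all tested miRNAs 5.41% rose and 9.91% fell.

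All 4 arms were far above the detection limit in all 11 libraries, and their order was the same in each: miR-132-3p, miR-132-5p, miR-212-5p, miR-212-3p. miR-132-3p had 14199 to 29461 counts and ranked 35th to 64th among the miRNAs of its library. miR-132-5p had 2358 to 6735 counts and ranked 99th to 138th. The miR-212 arms were rarer, with 324 to 1220 counts of miR-212-5p and 145 to 449 of miR-212-3p. The more abundant strand thus differed between the hairpins, being 3p for miR-132 and 5p for miR-212. As all 4 arms are 21 to 23 bases long and each read covers 1 arm, these counts needed no division by length. Together the arms took 0.226 to 0.476% of all counts, and miR-132-3p alone made up 76.7 to 85.0% of that sum. Of the counts with the shared AACAGUC seed, 98.4 to 99.2% came from miR-132-3p. The miRNAs nearest in the genome were hardly present, with 0 to 4 counts of hsa-miR-6776-3p and of hsa-miR-6776-5p and 0 to 12 of hsa-miR-1253.

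**Figure D1:**
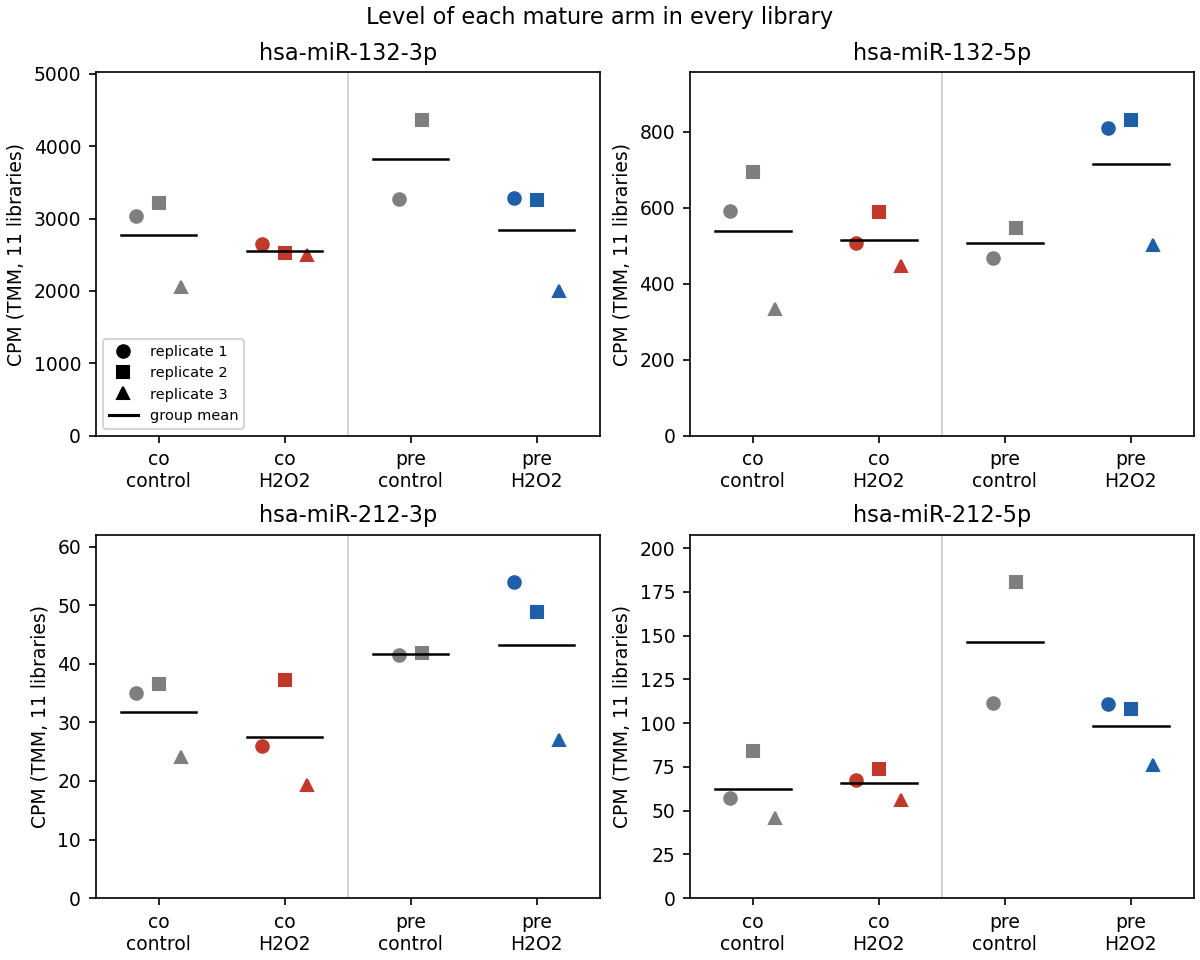
Level of each mature arm in every library, as CPM scaled by the trimmed mean of M-values (TMM) over all 11 libraries. Points are libraries, their shape is the replicate number, lines are group means (n = 3, but 2 for the pre-treatment controls), and each axis starts at 0. In pre-treatment the third H2O2 library lay below the other 2 for all 4 arms, at 1996 CPM against 3249 and 3277 CPM for miR-132-3p.

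On a scale common to the 11 libraries, the group order of miR-132-3p ran from 3817 ± 774 CPM (SD, n = 2) in pre-treatment controls, through 2841 ± 732 CPM (SD, n = 3) in pre-treatment H2O2 cultures and 2768 ± 620 CPM (SD, n = 3) in co-treatment controls, to 2557 ± 80.4 CPM (SD, n = 3) in co-treatment H2O2 cultures. Each neighbour in this order overlapped the next. miR-132-5p had another order, highest with 715 ± 184 CPM (SD, n = 3) in pre-treatment H2O2 cultures and between 507 and 540 CPM in the other 3 groups, again with every neighbour overlapping. miR-212-5p was the arm that differed most between experiments. It measured 146 ± 48.9 CPM (SD, n = 2) and 98.4 ± 19.2 CPM (SD, n = 3) in pre-treatment controls and H2O2 cultures, against 62.4 ± 19.7 and 65.9 ± 8.96 CPM (SD, n = 3 each) in co-treatment. The pre-treatment H2O2 cultures (76.3 to 111 CPM) did not overlap the co-treatment H2O2 cultures (56.3 to 74.1 CPM) for this arm. Nor did the pre-treatment controls (112 and 181 CPM) overlap the co-treatment controls (45.7 to 84.1 CPM). On this scale the lower pre-treatment control (112 CPM) just exceeded the highest H2O2 culture (111 CPM), whereas scaling within the experiment put them at 106 and 108 CPM. For miR-212-3p, the pre-treatment controls (41.6 and 41.9 CPM) lay above the co-treatment controls (24.0 to 36.5 CPM), and other neighbours overlapped. Differences between the experiments were not tested, because experiment and any batch between them cannot be told apart. The share of all miRNAs without overlap between the experiments was not computed, so these separations have no background beside them.

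Co-treatment asked whether H2O2 during differentiation changed the arms. No arm was called changed, and none moved by more than 0.25 on the log2 scale, while miRNAs at large responded widely. Levels below are CPM scaled by TMM within the experiment, and a miRNA was called at a false discovery rate (FDR) under 0.05 with an absolute log2 fold change (log2FC, H2O2 minus control) above 0.6.

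miR-132-3p measured 3123, 3516 and 2016 CPM in the 3 controls and 2739, 2560 and 2486 CPM with H2O2. The H2O2 cultures lay close together and inside the range of the controls. The log2FC was −0.15 (SE 0.25, 95% interval −0.68 to 0.38, FDR = 0.716 by edgeR's exact test). For its passenger strand miR-132-5p, the controls measured 610, 760 and 326 CPM and the H2O2 cultures 526, 597 and 445 CPM. Control 3 was again the lowest library, and the H2O2 values fell within the controls. Its log2FC was −0.11 (SE 0.30, 95% interval −0.75 to 0.52, FDR = 0.827 by the exact test).

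miR-212-3p, which carries the miR-132-3p seed, measured 36.0, 39.9 and 23.5 CPM in controls and 26.8, 37.8 and 19.2 CPM with H2O2. The lowest library of all was an H2O2 culture, but the groups overlapped, and the log2FC was −0.25 (SE 0.31, 95% interval −0.90 to 0.40, FDR = 0.60 by the exact test). miR-212-5p measured 59.0, 92.2 and 44.8 CPM in controls and 69.6, 75.0 and 56.1 CPM with H2O2. The group means, 65.3 and 66.9 CPM, were nearly equal, with a log2FC of 0.03 (SE 0.30, 95% interval −0.59 to 0.66, FDR = 0.954 by the exact test).

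In all, 0 of 4 arms were called in co-treatment by the exact test, by edgeR's quasi-likelihood test or by DESeq2, and 0 of 4 had an unadjusted p under 0.05 by either edgeR test (lowest 0.446 by the exact test). Over all 790 tested miRNAs, 26.2% were called by the exact test and 22.9% by the quasi-likelihood test, and 40.1% had an unadjusted exact p under 0.05. The groups overlapped for all 4 arms, whereas 41.6% of tested miRNAs had groups that did not overlap. The median absolute log2FC over all tested miRNAs was 0.63. The intervals bound the possible response: a rise of miR-132-3p above 0.38 or a fall below −0.68 lay outside its interval. The directions of miR-132-3p and miR-132-5p were not settled, since leaving out control 1 gave 0.02 and 0.07 and leaving out control 2 gave 0.02 and 0.16. Summed neuronal and mesenchymal markers were lower with H2O2 here, but the lists did not move as 1. Of 7 tested neuronal markers 0 rose and 3 fell, against 10.6% and 15.6% of all tested miRNAs. The other 4, miR-7-5p (log2FC −0.66), miR-9-3p (−0.40), miR-128-3p (−0.04) and miR-375 (0.06), were not called. The median log2FC of the list was −0.66, beside −0.04 for all tested miRNAs. Of 6 tested mesenchymal markers 1 rose (miR-221-3p, 2.94) and 1 fell (miR-199a-5p, −1.86), and miR-143-3p, which made up most of their sum, was not called (−0.60). The part of these markers in the values of the arms was not tested.

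Pre-treatment asked whether H2O2 before differentiation left the arms changed after 7 days of ATRA. Again no arm was called, but the arms did not point the same way. The more abundant strand of each hairpin had the lower mean with H2O2 and the less abundant strand did not. In these libraries the result depended on which control was kept.

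miR-132-3p measured 3105 and 4492 CPM in the controls and 3190, 3143 and 1883 CPM with H2O2. Control 2 was above every H2O2 culture, but control 1 was not, and H2O2 culture 3 lay well below the rest. The log2FC was −0.47 (SE 0.33, 95% interval −1.25 to 0.31, FDR = 0.448 by the exact test). miR-132-5p measured 444 and 562 CPM in controls and 788, 804 and 474 CPM with H2O2. H2O2 cultures 1 and 2 exceeded both controls, and culture 3 fell between the controls. Its log2FC was 0.45 (SE 0.33, 95% interval −0.32 to 1.23, FDR = 0.491 by the exact test).

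miR-212-3p measured 39.5 and 43.2 CPM in controls and 52.5, 47.3 and 25.5 CPM with H2O2. The H2O2 cultures lay on both sides of the controls, with a log2FC of 0.02 (SE 0.39, 95% interval −0.90 to 0.93, FDR = 1.00 by the exact test). miR-212-5p measured 106 and 186 CPM in controls and 108, 105 and 72.0 CPM with H2O2. Control 2 stood above all others, while control 1 was level with H2O2 cultures 1 and 2. The log2FC was −0.62 (SE 0.36, 95% interval −1.47 to 0.22, FDR = 0.351 by the exact test), the widest difference of means among the arms.

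In pre-treatment 0 of 4 arms were called by the exact test, the quasi-likelihood test or DESeq2, and 0 of 4 had an unadjusted p under 0.05 by either edgeR test (lowest 0.157 by the exact test). Of 868 tested miRNAs, 15.3% were called by the exact test and 1.96% by the quasi-likelihood test, and 28.6% had an unadjusted exact p under 0.05. All 4 arms had overlapping groups, against 46.0% of tested miRNAs without overlap. Without control 1, miR-132-3p was at −0.67 and miR-212-5p at −0.93, with the single control left assumed to vary like the H2O2 libraries. Without control 2, the same arms were at −0.21 and −0.19. miR-132-5p stayed between 0.33 and 0.67 and miR-212-3p between −0.14 and 0.28 whichever library was left out. Summed neuronal markers were higher with H2O2 in this experiment, a sum that followed miR-137 (log2FC 0.88, not called). Of 7 tested neuronal markers 0 rose and 1 fell (miR-375, −1.32), against 5.41% and 9.91% of all tested miRNAs. Among those not called, miR-9-3p (1.64), miR-128-3p (0.61) and miR-7-5p (0.45) were higher, miR-9-5p (0.06) was level and miR-218-5p (−0.39) was lower. The list median was 0.45, beside −0.20 for all tested miRNAs. The part of these markers in the values of the arms was not tested.

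**Figure D2:**
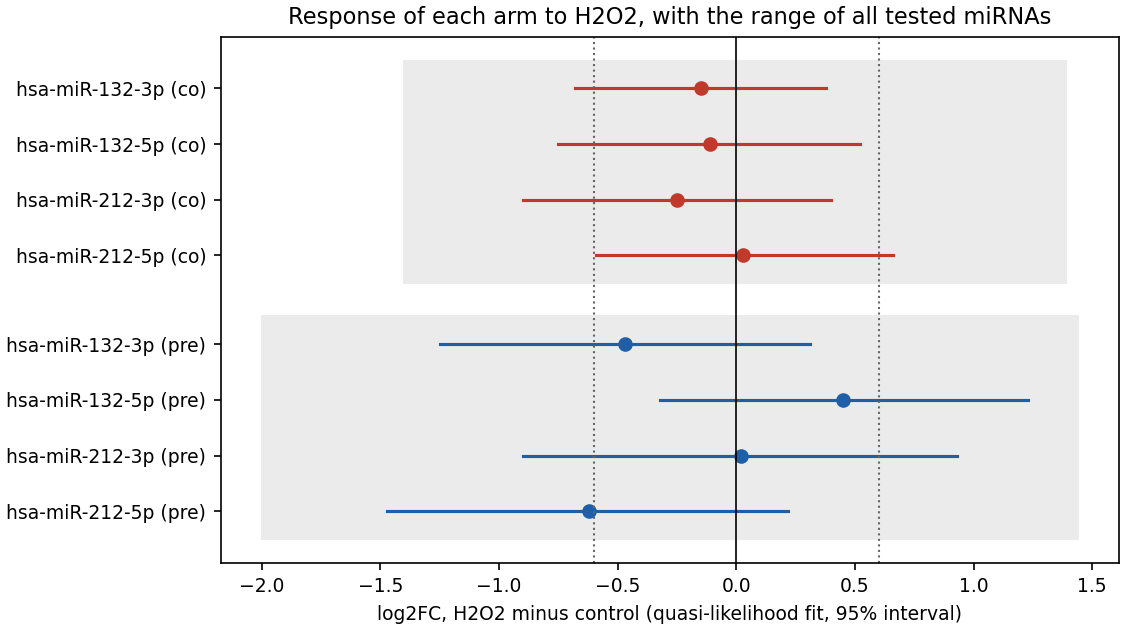
Difference of each arm between H2O2 and control (log2FC, points) with its 95% interval (lines) from edgeR's quasi-likelihood fit, for co-treatment (red, 3 against 3 libraries) and pre-treatment (blue, 3 against 2). Dotted lines mark 0.6 in either direction, and grey bands span the 5th to 95th percentile of all tested miRNAs (−1.40 to 1.39 in co-treatment, −2.0 to 1.44 in pre-treatment). All 8 intervals include 0.

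The response of the arms was then compared between the experiments, as an interaction in 1 quasi-likelihood fit of all 11 libraries. The difference, pre-treatment minus co-treatment, was −0.31 for miR-132-3p (SE 0.39, 95% interval −1.14 to 0.51, FDR = 0.578). For miR-132-5p it was 0.57 (SE 0.45, 95% interval −0.39 to 1.52, FDR = 0.368). The miR-212 arms gave 0.27 for 3p (95% interval −0.80 to 1.33, FDR = 0.717) and −0.65 for 5p (95% interval −1.61 to 0.32, FDR = 0.310). Thus 0 of 4 arms were called, and 0 of 4 had an unadjusted p under 0.05, against 27.3% of 945 miRNAs called. These intervals are wide enough to hold differences of more than 0.6 in at least 1 direction for each arm.

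Within groups, the 4 arms lay on the same side of their group mean in 8 of the 11 libraries. The exceptions were co-treatment control 1, where miR-212-5p was at −0.08 log2 units and the others at 0.16 to 0.20, and co-treatment H2O2 cultures 1 and 2. With only 2 pre-treatment controls, each mirrors the other, and deviations in the groups of 3 also balance. The 11 libraries are therefore not independent here. The share for other sets of 4 miRNAs was not computed, so this count has no background beside it. In pre-treatment, H2O2 culture 3 was low for all 4 arms, by 0.34 to 0.61 log2 units from the group mean. H2O2 cultures 1 and 2 exceeded culture 3 by 1.67- and 1.69-fold for miR-132-3p, 1.66- and 1.70-fold for miR-132-5p, 1.86- to 2.06-fold for miR-212-3p and 1.45- to 1.50-fold for miR-212-5p. Culture 3 was also the most distant library of its group over all miRNAs. It correlated at 0.991 and 0.992 with cultures 1 and 2, against 0.994 between those, and its counts differed from theirs by a chi-square per degree of freedom of 173.1 and 157.9, against 36.1. Its TMM factor was 0.998, and the median SD of log2 CPM in this group was 0.15 over 404 miRNAs with a mean of at least 10 CPM. The SDs of miR-132-3p (0.41), miR-132-5p (0.41), miR-212-3p (0.53) and miR-212-5p (0.30) ranked 25th, 26th, 13th and 66th from the largest.

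Control 3 of co-treatment was likewise low for all 4 arms, by 0.38 to 0.63 log2 units, and control 2 high for all 4, by 0.22 to 0.47. The SDs of that group lay nearer to the rest, at 0.33 to 0.56 against a median of 0.32. The co-treatment H2O2 cultures did not share such a pattern for the abundant strand. miR-132-3p varied there by an SD of only 0.05, or 1.06-fold from the lowest to the highest library, and 95.8% of miRNAs varied more. In the same 3 cultures miR-212-3p, with 145 to 235 counts, had an SD of 0.47. Without H2O2 culture 3 of pre-treatment, the log2FC was −0.25 for miR-132-3p, 0.67 for miR-132-5p, 0.28 for miR-212-3p and −0.45 for miR-212-5p, with FDR = 0.458 or more by the exact test for each.

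**Figure D3:**
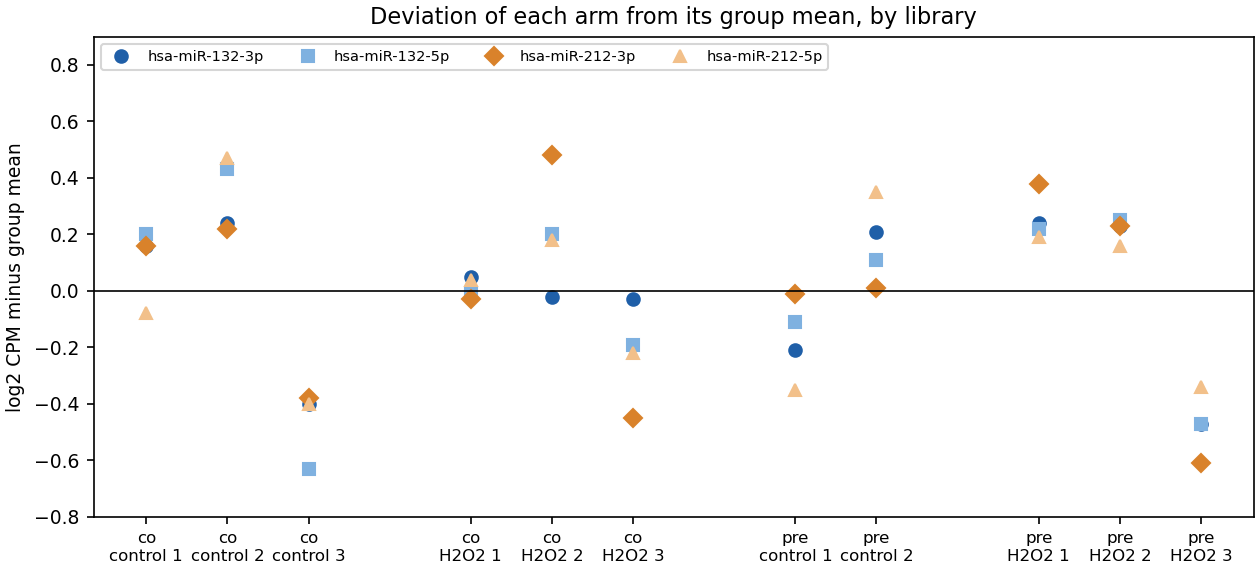
Deviation of each arm from its group mean in every library, in log2 CPM (TMM over 11 libraries), with 1 symbol per arm. All 4 arms were low in co-treatment control 3 (−0.38 to −0.63) and in pre-treatment H2O2 culture 3 (−0.34 to −0.61), and high in co-treatment control 2 (0.22 to 0.47).

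Over the 11 libraries, Pearson's r of log2 CPM with miR-132-3p was 0.81 for miR-212-5p, 0.71 for miR-212-3p and 0.55 for miR-132-5p, its own opposite strand. Among 403 miRNAs with a mean of at least 10 CPM, these ranked 1st, 4th and 13th in likeness to miR-132-3p. The 2 arms of the miR-132 hairpin were therefore less alike across libraries than miR-132-3p and the arms of its neighbour. Outside the pair, the highest values with miR-132-3p were 0.72 for hsa-miR-1306-3p and hsa-miR-135a-3p, 0.68 for hsa-miR-1250-5p, 0.64 for hsa-miR-766-5p and 0.62 for hsa-miR-320a. For miR-132-5p, miR-138-5p came first (0.78), miR-212-3p ranked 2nd, miR-132-3p 23rd and miR-212-5p 27th. For miR-212-5p, miR-219a-1-3p came first (0.87), miR-132-3p ranked 2nd, miR-212-3p 7th and miR-132-5p 38th. For miR-212-3p the other 3 arms ranked 1st to 3rd. These are descriptions over 11 points that share depth, experiment and group, and have no test.

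Ratios of 2 counts within a library need no scaling between libraries. Of the 4 ratios computed, 3 had pre-treatment groups that did not overlap: the arm ratio of miR-132 and both ratios between the hairpins. In that experiment 52.2% of 115 hairpins had arm ratios that did not overlap, a background for arm ratios only. The 4 ratios come from the same 4 counts, and any of them follows from the other 3, so they are not independent. For each hairpin, the 3p count was divided by the 5p count. In co-treatment the miR-132 ratio was 5.12, 4.63 and 6.18 in controls and 5.21, 4.29 and 5.59 with H2O2, which overlap (log2 difference −0.08, p = 0.8, two-sided exact permutation test). In pre-treatment it was 7.00 and 7.99 in controls and 4.05, 3.91 and 3.97 with H2O2. The H2O2 cultures were nearly equal and all lay below both controls, although their miR-132-3p level differed by 1.69-fold.

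The pre-treatment ratio was 1.88-fold lower with H2O2, a log2 difference of −0.91 between means of 1.99 ± 0.03 (SD, n = 3) and 2.90 ± 0.13 (SD, n = 2). Its exact permutation p was 0.2, the smallest that 3 against 2 libraries allow in this two-sided test, and 0.4 after adjustment over the 8 ratio tests. As a share of both arms, miR-132-5p took 12.5% (95% Wilson interval 12.1 to 12.9%) and 11.1% (10.8 to 11.5%) in the controls. With H2O2 it took 19.8% (19.4 to 20.2%), 20.4% (19.9 to 20.8%) and 20.1% (19.5 to 20.7%). These intervals cover counting error only, as reads are not taken as independent molecules. In the 6 co-treatment libraries the share was 13.9 to 18.9%, between the pre-treatment groups.

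A fit with limma across the 115 hairpins with a mean of at least 50 counts of each arm, added after these ratios were seen, gave the same −0.91 for miR-132 in pre-treatment (95% interval −1.42 to −0.40, FDR = 0.0165). This was not unusual among hairpins. In that fit 23.5% of hairpins were called in pre-treatment and 7.83% in co-treatment, 52.2% of hairpins had pre-treatment groups that did not overlap (36.5% in co-treatment), and miR-132 ranked 41st of 115 by the size of its shift. The call held without control 1 and was lost without any 1 of the other 4 pre-treatment libraries. Leaving out 1 pre-treatment library at a time gave FDR = 0.0156 without control 1, 0.0610 without control 2, and 0.0551, 0.0609 and 0.0518 without H2O2 cultures 1, 2 and 3, with shifts of −1.01 to −0.82. After a GC correction within libraries, possible for 89 hairpins, the shift was −0.71 (95% interval −1.32 to −0.10, FDR = 0.0882). The difference in shift between the experiments was −0.84 (95% interval −1.52 to −0.15, FDR = 0.0767), against 17.4% of hairpins called.

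For miR-212 the 3p over 5p ratio was below 1 in every library. It was 0.610, 0.433 and 0.525 in co-treatment controls and 0.385, 0.503 and 0.343 with H2O2 (log2 difference −0.35, p = 0.2, exact permutation test). In pre-treatment it was 0.373 and 0.232 in controls and 0.488, 0.451 and 0.354 with H2O2 (log2 difference 0.54, p = 0.4, exact permutation test). The groups overlapped in both experiments. The pre-treatment difference was 0.88 without control 1 and 0.20 without control 2. The shares of miR-212-3p were 27.1% and 18.8% in pre-treatment controls and 32.8%, 31.1% and 26.1% with H2O2, the last having the widest 95% Wilson interval (23.1 to 29.4%). In pre-treatment the mean share of the less abundant strand was therefore higher with H2O2 at both hairpins, 5p at miR-132 and 3p at miR-212. Over the 115 hairpins, 49.6% shifted towards their less abundant strand in pre-treatment. The limma fit gave FDR = 0.253 for miR-212 in pre-treatment. After the GC correction the shift was 0.99 (95% interval 0.37 to 1.61, FDR = 0.0285) in that fit, where 24.7% of 89 hairpins were called. It was 1.04 (FDR = 0.0327) without control 1, and was not called without any 1 of the other 4 pre-treatment libraries (0.92 to 1.09, FDR = 0.0652 to 0.108 by limma).

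**Figure D4:**
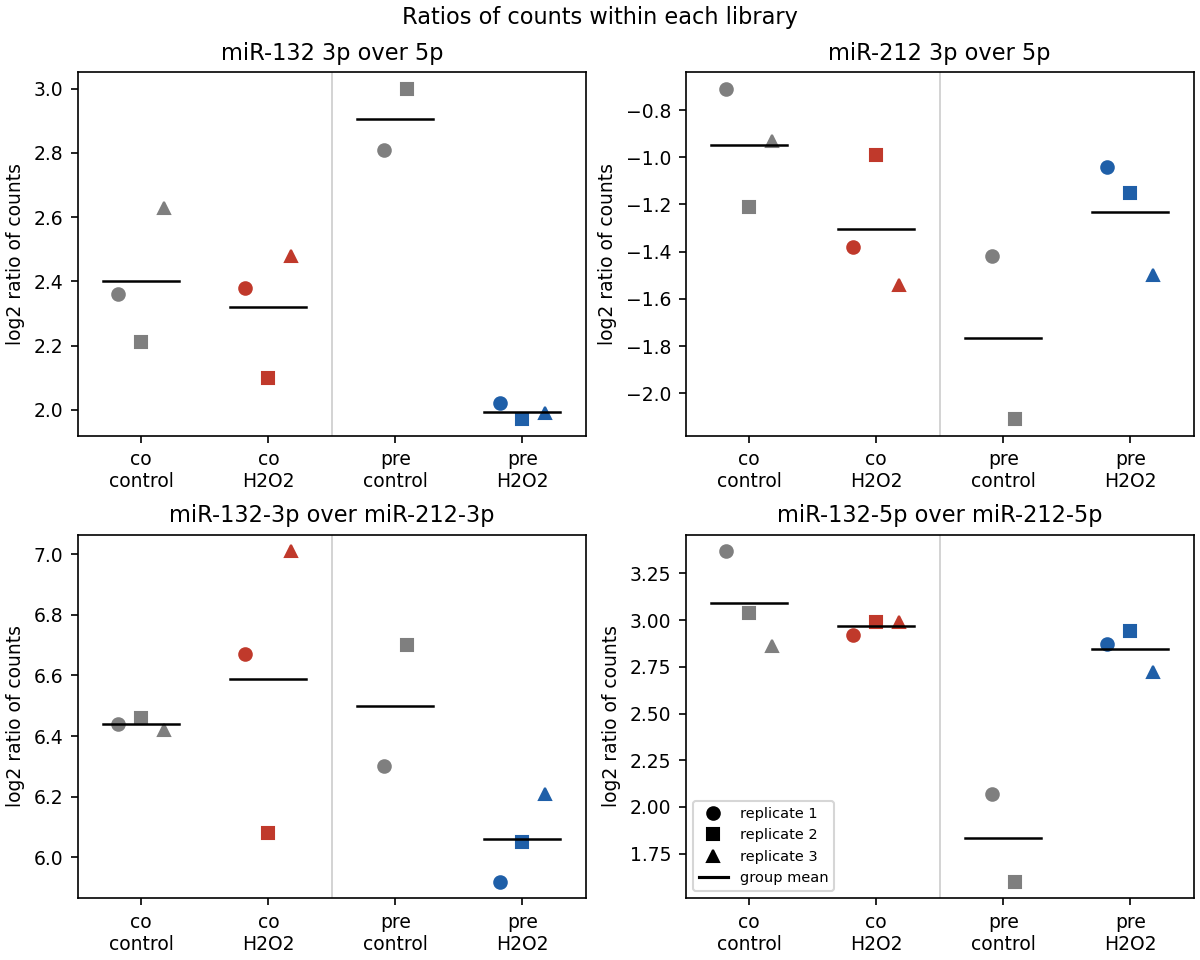
Log2 ratio of counts within each library for the arms of each hairpin (top) and for the same arm of the paired hairpins (bottom). Points are libraries, shapes are replicate numbers and lines are group means, and each panel has its own scale. In pre-treatment the 3 H2O2 libraries of miR-132 3p over 5p (1.97 to 2.02) lay below both controls (2.81 and 3.00), and those of miR-132-5p over miR-212-5p (2.72 to 2.94) above both controls (1.60 and 2.07).

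The balance between the paired hairpins was compared in the same way. miR-132-3p exceeded miR-212-3p, its seed partner, 86.7-, 88.0- and 85.8-fold in co-treatment controls and 102-, 67.8- and 129-fold with H2O2. The controls were nearly constant and the H2O2 cultures lay on both sides of them (log2 difference 0.15, p = 0.7, exact permutation test). In pre-treatment the ratio was 78.7 and 104 in controls and 60.7, 66.4 and 74.0 with H2O2, without overlap (log2 difference −0.44, p = 0.2, exact permutation test). The difference was −0.64 without control 1 and −0.24 without control 2. The share of miRNA pairs whose ratios do not overlap was not computed, so this separation has no background beside it.

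For the 5p arms, miR-132-5p exceeded miR-212-5p 10.3-, 8.25- and 7.28-fold in co-treatment controls and 7.55-, 7.95- and 7.93-fold with H2O2 (log2 difference −0.13, p = 0.6, exact permutation test). In pre-treatment the ratio was 4.19 and 3.02 in controls and 7.31, 7.68 and 6.59 with H2O2. This 2.02-fold difference (log2 difference 1.01, p = 0.2, exact permutation test) was the largest of the 8 ratio comparisons. It set the pre-treatment controls apart from the other 9 libraries, whose ratio was 6.59 to 10.3. After adjustment the exact permutation p was 0.4 or more for all 8 comparisons, and no ratio could pass 0.05 with these numbers of libraries. The pre-treatment values rest on 2 controls that were the least alike replicates. Leaving out either control gave −0.82 and −1.01 for miR-132 3p over 5p and left the 5p ratio between 0.78 and 1.25.

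**Figure D5:**
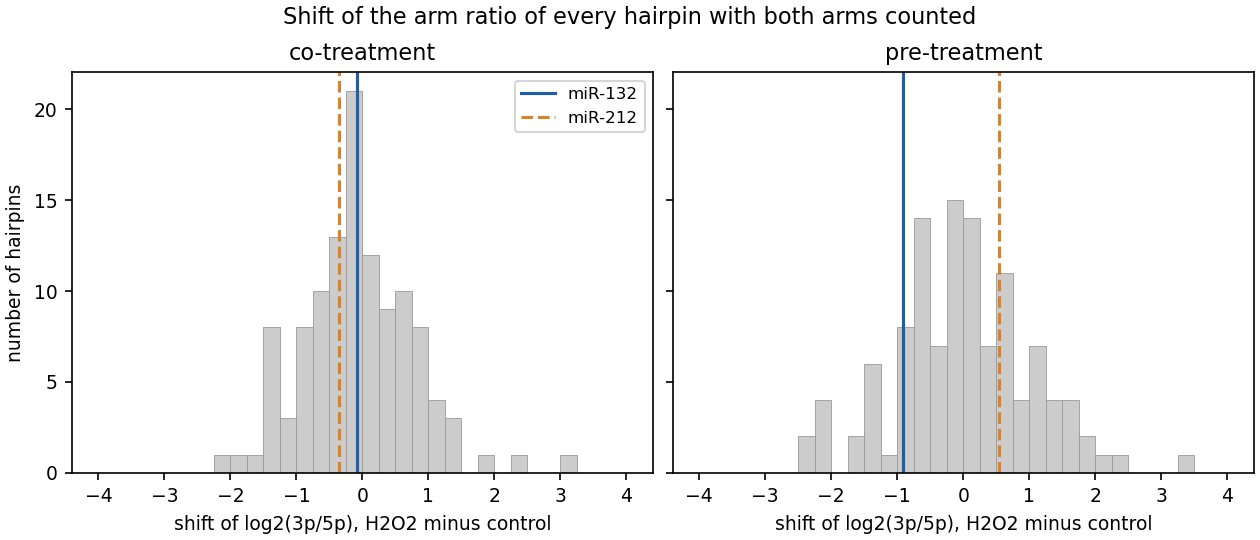
Number of hairpins (of 115) by the shift of their log2 ratio of 3p over 5p counts, H2O2 minus control, in co-treatment (left) and pre-treatment (right), in bins of 0.25 log2 units. Lines mark miR-132 (−0.08 and −0.91) and miR-212 (−0.35 and 0.54), and all 4 lines fall within the bulk of the hairpins.

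miRNAs of related biology were examined for comparison, in lists that share members with each other and with the neuronal markers. Of 16 activity-regulated or synaptic neuronal miRNAs, 12 were tested in co-treatment, where 0 rose and 3 fell, against 10.6% and 15.6% of all tested miRNAs. They were miR-219a-5p (log2FC −1.56), miR-137 (−1.10) and miR-218-5p (−0.99), the first with overlapping groups. miR-137 and miR-218-5p are known for roles at synapses and in motor neurons, and miR-219a-5p for oligodendrocyte differentiation. The median log2FC of the list was −0.01, beside −0.04 for all tested miRNAs. In pre-treatment 13 were tested, and 1 rose and 2 fell, against 5.41% and 9.91% of all tested. miR-138-5p, which acts on dendritic spine size, rose (1.03). miR-134-5p, which limits spine growth through Limk1, fell (−1.95), as did miR-485-5p (−2.06). None of these 3 was called by the quasi-likelihood test, and the median was −0.03 beside −0.20.

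Of 11 arms of miRNAs known to have REST sites, 7 were tested in each experiment. In co-treatment 0 rose and 3 fell, against 10.6% and 15.6% of all tested miRNAs, namely miR-29b-3p (−1.78), miR-153-5p (−1.40) and miR-9-5p (−1.06), with a list median of −0.80 beside −0.04. miR-9-5p had 14 to 46 counts and was not called by the quasi-likelihood test (FDR = 0.0651). In pre-treatment 0 of 7 were called by the exact test or by the quasi-likelihood test, against 15.3% and 1.96% of all tested, and the list median was 0.42 beside −0.20. The most abundant tested members there were miR-29a-3p (log2FC 0.42), miR-153-5p (0.89), miR-29a-5p (0.53) and miR-9-3p (1.64).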

How the data were processed

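Raw counts per mature miRNA were deposited by the authors as 1 table per experiment. Their reads had been trimmed (Cutadapt 2.10), aligned to hg19, which is GRCh37 (Bowtie2 2.4.1), and assigned to miRNAs (HTSeq 0.7.2). The library kit tags molecules, but whether molecules or reads were counted is not given in the sources used here. The authors' own fold changes and p-values were not used.

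The main comparison of H2O2 and control libraries was the exact test in edgeR 4.0.16 under R 4.3.3, run separately on each table with TMM scaling, an FDR under 0.05 and an absolute log2FC above 0.6. A miRNA entered when 3 libraries of co-treatment passed 0.936 CPM, or 2 of pre-treatment 0.721 CPM, values equal to 5 counts in the shallowest library. Standard errors and intervals came from edgeR's quasi-likelihood fit, as did the interaction over 11 libraries. Ratios were tested by exact permutation (scipy 1.17.1), and with limma 3.58.1 (0.5 added to each count). The tests were run on simulated data first. DESeq2 1.42.0, other scalings, filters and a GC correction (lowess span 0.5, mean CPM of at least 10), the replicate block and each library left out were alternatives. The GC-corrected fit held 363 miRNAs in co-treatment and 348 in pre-treatment. These passed the count filter and the minimum mean CPM and had a known GC content.

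The 4 members and the lists were chosen with earlier results of these data known. Named besides them were the 5 miRNAs most like miR-132-3p, miRNAs within 1 Mb, those sharing a seed, and the called or, with none called, the 4 most abundant list members. Marker lists were neuronal, blood, epithelial and mesenchymal. Replicates of a group differed by more than sampling noise, so none was counted as a duplicate.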

Additional observations from a re-analysis of the deposited data

How the results depend on the processing

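Under the alternatives run, 114 values of the arms' log2FC kept their direction and side of the threshold, 16 changed sign and 2 passed the threshold, while 59 of 60 values of the interaction and 79 of 88 of the ratios kept both. The cause of each change was not tested. These values are not all separate checks. Dropping the log2FC threshold cannot change a log2FC, and the quasi-likelihood test gave the reported log2FC for every arm in both experiments. Counts of called miRNAs moved more, and 27 of 48 stayed within 1.5 times of the value reported.

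In co-treatment, requiring the CPM filter in all libraries gave 0.02 for miR-132-3p and 0.05 for miR-132-5p, and the GC correction gave 0.16 for miR-132-5p, all against the reported sign. In pre-treatment, miR-212-3p was −0.02 with DESeq2, −0.02 with its size factors in edgeR and −0.16 with the filter in all libraries. The quasi-likelihood test called 181 miRNAs in co-treatment and 17 in pre-treatment, against 207 and 133 by the exact test. Against its own counts, it called 84 and 150 in 1 fit of 11 libraries, and 24 and 41 with the GC correction, where 363 and 348 miRNAs could be fitted. Without a filter the exact test called 61 in pre-treatment.

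Deviations of same-numbered libraries from their group means correlated at 0.04, −0.17 and −0.18 in co-treatment and at 0.24 and −0.04 in pre-treatment. Those of differently numbered libraries reached 0.23 and 0.26. Deviations within such small groups balance each other, so these values cannot decide whether replicate numbers pair the libraries. With the replicate number as a block, the quasi-likelihood test called 111 and 15 miRNAs in co- and pre-treatment against 181 and 17 without it, 0 and 0 with the GC correction added (miR-132-5p in co-treatment 0.24), and 115 for the interaction against 258. No arm was called with the block, where the log2FC of miR-132-3p was −0.12 and −0.24, of miR-132-5p −0.04 and 0.67, of miR-212-3p −0.26 and 0.27, and of miR-212-5p 0.09 and −0.40.

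Leaving out 1 library gave 98 to 279 calls in co-treatment, 9 to 449 in pre-treatment and 164 to 444 for the interaction. The log2FC in co-treatment then ranged from −0.26 to 0.02 for miR-132-3p, −0.30 to 0.16 for miR-132-5p and −0.08 to 0.37 for miR-212-5p. In pre-treatment it ranged from −0.67 to −0.21 for miR-132-3p, −0.14 to 0.28 for miR-212-3p and −0.93 to −0.19 for miR-212-5p, and the only calls of an arm were those without control 1. The interaction of miR-212-3p ranged from −0.08 to 0.51. In co-treatment the log2 ratio of miR-132 3p over 5p differed by −0.17 to 0.04, of the 3p arms by −0.06 to 0.40 and of the 5p arms by −0.24 to 0.01. For miR-132 3p over 5p in pre-treatment, limma gave −0.91 and, with libraries left out, −1.01 to −0.82 (with the GC correction, −0.93 to −0.49). For miR-212, limma with the GC correction gave 0.99, and 0.92 to 1.09 with libraries left out (1.04 without control 1).

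With 2 to 3 libraries a group, the precision is that of the intervals given, and the pre-treatment values rest on 2 controls.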

Other observations

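After the GC correction within libraries, added after the ratios were seen, the shift of miR-212 3p over 5p differed between the experiments by 1.71 (pre-treatment minus co-treatment, 95% interval 0.88 to 2.54, FDR = 0.0151 by limma over 89 hairpins, of which 14.6% were called). Leaving out 1 pre-treatment library at a time gave 1.64 to 1.82 (FDR = 0.0111 to 0.0483 by limma). Without it the difference was 0.89 (95% interval −0.04 to 1.82, FDR = 0.142 over 115 hairpins). The correction moved miR-212 more than miR-132, whose difference was −0.37 (95% interval −1.19 to 0.46, FDR = 0.538) with it. The miR-212 arms have GC contents of 57.1% (3p) and 47.8% (5p). In co-treatment the corrected miR-212 shift was −0.72 (95% interval −1.28 to −0.17, FDR = 0.118).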
